A study of Mus musculus with 16 samples.

Results

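The livers of 5-week-old mice lacking the bile acid receptor FXR (gene Nr1h4) were compared directly with the livers of 5-week-old mice lacking SHP (gene Nr0b2), the repressor that FXR induces. The comparison rests on 4 of the 16 arrays of the series, 2 per genotype. A probe was used when its detection p-value, which ranks it among the negative controls of its array, was under 0.01 on both arrays of either genotype. This held for 9999 of 24613 probes, and the brightest probe of each gene gave 7439 tested genes. All mice were male C57BL/6 on normal chow. The FXR-/- and SHP-/- lines were made congenic by backcrossing and bred in the laboratory, so neither arm holds bought animals. The other arrays hold both genotypes at 3 weeks, and wild-type mice bought from a supplier and FXR-/-SHP-/- double knockouts, from crosses of both lines, at 3 and 5 weeks. How the alleles were made is not given in the labels, nor whether duplicate arrays come from different mice, so a p-value here covers the spread of duplicates alone.

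FXR, with its partner RXR, binds response elements made of inverted repeats and activates genes in hepatocytes when bile acids accumulate. One of its targets encodes SHP, which has no DNA-binding domain and represses other transcription factors, among them LRH-1 and HNF4-alpha on the promoters of the bile acid synthesis genes Cyp7a1 and Cyp8b1. FXR also drives bile salt export, and the intestine sends a parallel signal through FGF15. Loss of either receptor is known to raise Cyp7a1 in mice, and loss of FXR is known to lower Abcb11.

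The 4 arrays detected 9597 and 9725 probes in FXR-/- and 10076 and 10341 in SHP-/-, with a mean signal of 197.2 and 198.9 against 229.0 and 241.1. Duplicates correlated at 0.9955 in FXR-/- and 0.9964 in SHP-/- over probes. Duplicate differences were also divided by the standard error expected from the beads of both arrays. Their standard deviation was then 1.24 in FXR-/- and 1.47 in SHP-/-, little above bead noise. Whether the p-values hold any spread between animals is therefore not known. The 3-week arrays lie on slide 1 and the 5-week arrays on slide 2, which means that age cannot be told apart from slide, while genotypes of 1 age share a slide. Hepatocyte markers had a mean log2 intensity of 11.90 on both FXR-/- arrays and of 11.89 and 11.86 on the SHP-/- arrays. Markers of neighbouring tissues set the genotypes apart. The mean of 25 skeletal muscle genes was 4.63 and 4.60 in FXR-/-, where 20 of them were undetected on both arrays, and 8.01 and 7.99 in SHP-/-, where none was. For 24 exocrine pancreas genes the FXR-/- arrays averaged 5.90 and 5.89, with 8 undetected, and the SHP-/- arrays 7.80 and 7.77, with none undetected. All 25 muscle genes (median -3.46) and 23 of the 24 pancreas genes (median -2.33) were lower in FXR-/-, and 5 of those muscle genes and 15 of those pancreas genes were detected on all 4 arrays. The other 20 muscle and 8 pancreas genes entered the test through SHP-/- alone. For muscle, wild type averaged 7.21 and 7.18 and the double knockout 7.72 and 7.75, so FXR-/- was the low group. For pancreas, wild type averaged 4.94 and 4.96 and the double knockout 5.15 and 5.14. There FXR-/- lay above both, and SHP-/- was the high group. Acta1, the actin of skeletal muscle, was at 5.89 and 5.95 in FXR-/- and 12.09 and 11.98 in SHP-/-, and the pancreatic protease Ctrb1 was at 7.84 and 7.91 against 10.64 and 10.66. In bulk tissue fewer cells of a type and less RNA per cell cannot be told apart, and the part of these tissues in other results was not tested.

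Nr1h4 followed its labels. Its log2 intensity was 5.91 and 5.97 on the FXR-/- arrays and 11.18 and 11.03 on the SHP-/- arrays. It was 10.55 and 10.60 in wild type and 5.87 and 6.17 in the double knockout. The groups without FXR were far below the others. The arrays of FXR-/- and SHP-/- did not overlap for Nr1h4, as for 4624 of 7439 genes (62.2%). Throughout, log2 differences are FXR-/- minus SHP-/-, with the standard error after ± and 2 arrays per group. For Nr1h4 the difference was -5.17 ± 0.11, or 35.9-fold, with an adjusted p of 3.4e-17 in limma over all genes. No array detected the Nr0b2 probe, at 4.23 and 4.19 in FXR-/- and 4.2 and 4.21 in SHP-/-, so the SHP deletion was not checked by its own transcript.

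Of 7439 genes 1432 differed at an adjusted p under 0.05 (19.2%), 714 higher in FXR-/- (9.6%) and 718 lower (9.65%). At least 2-fold differences were seen for 294 genes (3.95%), 101 of them higher (1.36%) and 193 lower (2.59%) in FXR-/-. This count was 155 with the authors' values (51 higher and 104 lower), 187 with an offset of 50 (64 and 123) and 181 among genes detected on all 4 arrays (77 and 104), and 246 outside the lists of other tissues (98 and 148). The median difference over all genes was 0.02. A gene is called higher or lower below only where its adjusted p was under 0.05, at any fold. The share of a list called below is to be read beside the 19.2% over all genes. The count of called genes, 1432, depended on the number of arrays. Leaving out any of the 4 arrays lowered the count to between 960 and 989 (970 and 989 without FXR-/- replicates 1 and 2, 971 and 960 without SHP-/- replicates 1 and 2).

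Bile acid synthesis genes were not moved as a block. Of 12 tested members of the bile acid synthesis and conjugation list 3 were higher in FXR-/-, 1 was lower and 8 did not pass. That is 33.3% called, beside 19.2% over all genes, with a median of 0.06 against 0.02 over all genes. Cyp7a1, the rate-limiting enzyme of the classic pathway, had a log2 intensity of 11.53 and 11.50 in FXR-/-, 9.97 and 10.06 in SHP-/-, 8.55 and 8.72 in wild type and 11.66 and 11.65 in the double knockout. Wild type lay lowest, SHP-/- above it, and FXR-/- and the double knockout together at the top. FXR-/- exceeded SHP-/- by 1.5 ± 0.10, or 2.83-fold (limma adjusted p = 1.8e-09). Cyp8b1, the 12-alpha-hydroxylase that directs synthesis to cholic acid, read 13.36 and 13.35 in FXR-/- and 12.99 and 12.90 in SHP-/-, a smaller gap of 0.41 ± 0.08 (adjusted p = 0.0013). Wild type was at 12.63 and 12.61 and the double knockout at 13.14 and 13.40, so Cyp8b1 kept wild type lowest but the double knockout spanned FXR-/-. Cyp7b1, the oxysterol 7-alpha-hydroxylase of the alternative pathway, differed by 0.41 ± 0.12 (adjusted p = 0.020), with 11.67 and 11.30 in FXR-/- against 11.09 and 11.07. That call for Cyp7b1 rested on the duplicates, since the adjusted p became 0.31 without FXR-/- replicate 1, where the difference was 0.22, and 0.088 and 0.1 without SHP-/- replicates 1 and 2.

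Most of the later steps did not pass. Cyp27a1, the mitochondrial sterol 27-hydroxylase, differed by -0.01 ± 0.08, and Hsd3b7, which acts on the sterol ring after 7-alpha-hydroxylation, by 0.01 ± 0.10. Cyp39a1, a 24-hydroxycholesterol hydroxylase, differed by 0.03 ± 0.11 and Acox2, the branched-chain oxidase of side-chain shortening, by 0.00 ± 0.10. Cyp2c70, which makes muricholic acids in mice, gave 0.10 ± 0.07, Scp2, a peroxisomal thiolase, -0.07 ± 0.07, and the thioesterase Acot8 0.24 ± 0.10 (adjusted p = 0.093). For Scp2 the mean of its 3 probes was -0.35 and passed (adjusted p = 0.0012). Conjugation enzymes split. Slc27a5, the bile acid CoA ligase, was at 11.96 and 11.92 in FXR-/- and 12.38 and 12.40 in SHP-/-, lower in FXR-/- by -0.45 ± 0.07 (adjusted p = 0.00017). Baat, which joins the acyl-CoA to taurine or glycine, gave 0.18 ± 0.24 (adjusted p = 0.65), with SHP-/- arrays at 8.77 and 9.17 that enclose or touch the FXR-/- values of 9.18 and 9.12.

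**Figure D1:**
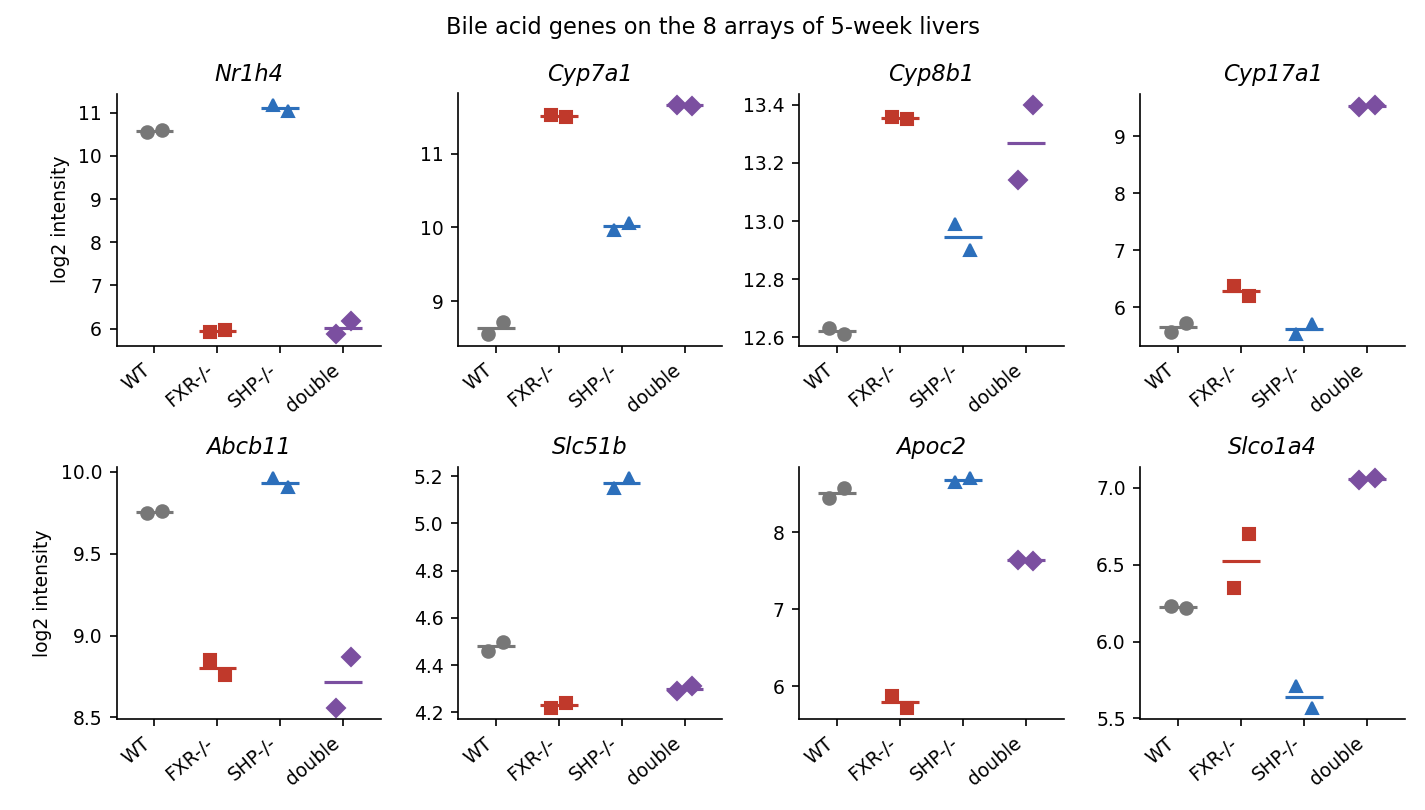
Log2 intensity of 8 genes on the 8 arrays of 5-week livers; points are arrays, bars are means of 2 arrays, and each panel has its own axis. Nr1h4 is near 6 where FXR is missing, Cyp7a1 climbs from wild type through SHP-/- to FXR-/- and the double knockout, Abcb11 is low in both groups without FXR, and Cyp17a1 is high in the double knockout.

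Bile salt exporters went both ways, with Abcb11 and Slc51b lower in FXR-/- and Abcc4 higher. Of 12 tested members of the bile acid and lipid transport list 5 were lower in FXR-/-, 2 higher and 5 did not pass. The share called was 58.3% and the median 0.05. Abcb11, the canalicular bile salt pump and a direct FXR target, read 8.85 and 8.76 in FXR-/- and 9.96 and 9.91 in SHP-/-. The double knockout was at 8.56 and 8.87 and wild type at 9.75 and 9.76, so the 2 groups without FXR lay together below the other 2. Abcb11 was 2.19-fold lower in FXR-/- (-1.13 ± 0.09, adjusted p = 2.2e-08). Slc51b, a subunit of the basolateral bile salt exporter, was undetected in FXR-/- at 4.22 and 4.24 and detected in SHP-/- at 5.15 and 5.19 (-0.94 ± 0.12, adjusted p = 7.9e-06). It was undetected too in wild type (4.46 and 4.50) and in the double knockout (4.29 and 4.31), so only SHP-/- carried a signal. Where a gene was undetected in a group, its fold is a bound, for which each undetected array was set to its own lowest detected signal, and Slc51b was at least 1.1-fold lower. The promoters of these genes are shown because both genes are known FXR targets and each holds an inverted repeat of the kind FXR binds. The 250 bases before the gene start are given 5′ to 3′ from RefSeq on GRCm38.p6, for Abcb11 at chr2:69342617-69342866 and for Slc51b at chr9:65422774-65423023, both on the minus strand, with the match in capitals.
Abcb11: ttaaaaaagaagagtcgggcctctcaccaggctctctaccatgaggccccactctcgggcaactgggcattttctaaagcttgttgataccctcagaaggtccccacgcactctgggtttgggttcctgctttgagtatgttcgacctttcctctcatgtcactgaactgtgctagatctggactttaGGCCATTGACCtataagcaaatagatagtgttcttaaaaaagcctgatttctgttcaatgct
Slc51b: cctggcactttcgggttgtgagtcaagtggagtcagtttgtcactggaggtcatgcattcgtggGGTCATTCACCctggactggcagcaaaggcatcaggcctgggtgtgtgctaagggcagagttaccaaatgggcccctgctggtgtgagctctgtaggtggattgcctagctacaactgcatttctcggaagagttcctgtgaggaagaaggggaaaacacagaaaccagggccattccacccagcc
Both strands were searched. Abcb11 holds an inverted repeat of GGNCA with 1 base between the units at position -62 from the gene start, a pattern in 189 of 32851 mouse promoters (0.575%). Slc51b holds an inverted repeat of GGTNA with the same spacing at -186, a pattern in 72 promoters (0.219%). Neither promoter holds a further match to either pattern. The 2 patterns leave different bases free and each promoter matches only 1 of them. In each, the free base is the one at which the 2 units in its own promoter differ. The shares therefore describe these patterns and not FXR elements at large, and do not measure how rare such a match is. A match describes these letters and not binding.

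The other transporters went in both directions. Abcg5, which with Abcg8 secretes sterols into bile, was at 10.01 and 10 in FXR-/- and 10.71 and 10.81 in SHP-/- (-0.75 ± 0.09, adjusted p = 4.6e-06), while Abcg8 itself gave 0.05 ± 0.09. Wild type and the double knockout were near SHP-/- for Abcg5, at 10.58 and 10.48 and at 10.54 and 10.68, which left FXR-/- alone at the bottom. Abcb4, the phospholipid exporter of the canaliculus, was lower in FXR-/- by -0.46 ± 0.07 (adjusted p = 0.00012). Abcc2, the conjugate exporter of bile, was lower by -0.26 ± 0.08 (adjusted p = 0.034) with 1 probe and +0.26 with its other probe, and lost its call without any of the 4 arrays (adjusted p = 0.084 and 0.19 without FXR-/- replicates 1 and 2, 0.22 and 0.064 without SHP-/- replicates 1 and 2). A pair of basolateral carriers was higher in FXR-/-. Abcc4, an exporter known to rise in cholestasis, read 5.67 and 5.63 against 5.12 and 4.92 (0.63 ± 0.14, adjusted p = 0.0033, and 0.055 without SHP-/- replicate 2), and 6.45 and 6.56 in the double knockout. Slco1a4, an uptake carrier, read 6.35 and 6.70 against 5.71 and 5.57 (0.89 ± 0.15, adjusted p = 0.00026), and again the double knockout was highest at 7.05 and 7.06. Slc10a1, the main bile salt uptake carrier, gave 0.24 ± 0.14, Slco1b2 0.30 ± 0.13, Slco2b1 0.04 ± 0.09 and the exporter Abcc3 0.25 ± 0.10, none of which passed.

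Among 21 tested genes reported as FXR targets 5 were lower in FXR-/-, 3 higher and 13 did not pass (38.1% called). The median was -0.10. Apoc2, the cofactor of lipoprotein lipase and a known FXR target, was the furthest. It read 5.87 and 5.72 in FXR-/-, 8.66 and 8.70 in SHP-/-, 8.44 and 8.57 in wild type and 7.64 and 7.63 in the double knockout. FXR-/- was alone at the bottom and the double knockout lay between it and the rest, although both lack FXR. The difference was -2.88 ± 0.12, or 7.37-fold (adjusted p = 1.4e-12). Abcb11 and Slc51b followed it among the lower members. Cyp2b10, a cytochrome P450 that the receptor CAR induces, was the furthest in the other direction, at 7.05 and 7.14 against 5.74 and 5.91 (1.27 ± 0.15, adjusted p = 3.6e-06). Wild type was near FXR-/- at 6.89 and 6.83 and the double knockout highest at 8.57 and 8.24, so SHP-/- was the low group. At 3 weeks the Cyp2b10 difference was -1.62.

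Of 19 nuclear receptors and coregulators 2 were higher, 4 lower and 13 did not pass (31.6% called), with a median of -0.02. Pparg, a lipogenic receptor that is low in lean liver, read 6.61 and 6.58 in FXR-/- and 4.63 and 5.03 in SHP-/-, where 1 of 2 arrays detected it (1.77 ± 0.14, adjusted p = 1.4e-08). Wild type lay between at 5.93 and 5.60 and the double knockout matched FXR-/- at 6.70 and 6.66. Ppargc1a, a coactivator of fasting metabolism, was lower in FXR-/- at 5.82 and 5.89 against 6.81 and 6.78 (-0.94 ± 0.09, adjusted p = 3.8e-07). Nr1i2, the xenobiotic receptor PXR, was lower at 7.96 and 7.96 against 8.67 and 8.80 (-0.77 ± 0.09, adjusted p = 4.4e-06).

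Most genes of fatty acid and triglyceride synthesis were higher in FXR-/- (65.0% called, beside 19.2% over all genes). Of 20 tested members 13 were higher, none was lower and 7 did not pass, with a median of 0.40, and the count of 13 was 8 without FXR-/- replicate 1 and 7 without SHP-/- replicate 1. Pnpla3, a lipid droplet protein under SREBP-1c control, read 7.05 on both FXR-/- arrays against 5.17 and 5.13 in SHP-/- (1.90 ± 0.13, adjusted p = 1.4e-09). Elovl6, which lengthens palmitate, read 9.53 and 9.45 against 8.26 and 8.03 (1.35 ± 0.10, adjusted p = 4.8e-09), and Pklr, liver pyruvate kinase, 8.10 and 7.98 against 6.99 and 6.88 (1.10 ± 0.09, adjusted p = 3e-08). In the double knockout Pnpla3 was at 6.84 and 6.99 and Elovl6 at 9.41 and 9.37, both close to FXR-/-, while wild type was close to SHP-/-. Thrsp, a regulator of lipogenesis, was higher by 0.84 ± 0.12. Cholesterol synthesis did not share this, with 1 of 18 genes called, Dhcr7, the last enzyme of the pathway (-0.26 ± 0.08, adjusted p = 0.037, and 0.1 to 0.18 without any of the 4 arrays), and a list median of 0.03.

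Fatty acid oxidation genes were balanced, with 3 higher, 3 lower and 18 not passing of 24 and a median of 0.05. Their share called was only a little above the 19.2% over all genes. Cyp4a14, an omega-hydroxylase driven by PPAR-alpha, read 8.16 and 8.12 in FXR-/- against 10.08 and 10.11 in SHP-/-, 9.66 and 9.61 in wild type and 11.12 and 11.08 in the double knockout (-1.96 ± 0.08, adjusted p = 4.3e-13). The peroxisomal thiolases went apart, Acaa1b lower by -0.86 ± 0.08 and Acaa1a higher by 0.59 ± 0.07, and Acot4, a peroxisomal thioesterase, was higher by 0.77 ± 0.16. Of 25 lipoprotein and lipase genes 3 were higher and 5 lower (32.0% called), with a median of -0.02. Apoa4, an apolipoprotein that rises with hepatic fat, was at 9.36 and 9.38 in FXR-/- and 7.38 and 7.30 in SHP-/- (2.03 ± 0.12, adjusted p = 3.1e-10), with the double knockout at 9.10 and 8.68 and wild type at 7.0 and 6.81. Scarb1, the HDL receptor, was lower at 10.49 on both arrays against 11.37 and 11.67 (-1.03 ± 0.11, adjusted p = 1.3e-06). Ces1g, a carboxylesterase that acts on triglyceride, was lower by -1.13 ± 0.17.

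Detoxification genes were mostly higher in FXR-/-. Of 21 CAR and PXR targets 12 were higher and 2 lower (66.7% called, beside 19.2% over all genes), with a median of 0.37. Of 27 NRF2 targets and glutathione genes 15 were higher and 5 lower (74.1% called), with a median of 0.52. Of those 15 higher genes 11 were glutathione transferases, and the others were Ephx1 (1.06), Hmox1 (0.86), Abcc4 (0.63) and Gclm (0.52). Nqo1 (0.40, adjusted p = 0.051), Gclc (0.20), Gsr (0.20), Srxn1 (0.07), Txnrd1 (0.05) and Gss (-0.13) did not pass, and Osgin1 was lower (-1.39). Cyp2c39 read 10.12 on both FXR-/- arrays, 6.18 and 6.15 in SHP-/-, 5.07 and 5.05 in wild type and 5.54 and 5.51 in the double knockout, so FXR-/- stood alone (3.95 ± 0.10, adjusted p = 7.2e-16). Cyp2c50 did the same, at 9.32 and 9.27 against 6.33 and 6.23, with 6.47 and 6.49 in wild type (3.02 ± 0.17, adjusted p = 7.9e-11). The Cyp2c genes lie in a family of near-identical sequences, and which member a probe read was not tested. Cyp2b9, another CAR target, went the other way, undetected in FXR-/- at 4.31 and 4.19 against 6.73 and 6.43 in SHP-/- and at least 3.1-fold lower (-2.33 ± 0.10, adjusted p = 3.6e-12), while the double knockout reached 10.26 and 10.21.

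Of 15 tested glutathione transferases of that list 11 were higher in FXR-/-, 3 lower (Mgst1, Gstp1 and Mgst3) and Gsta3 did not pass (0.22). Gstp1 differed by -0.62 ± 0.09 and Mgst3 by -0.51 ± 0.11. A stepwise order over the 4 groups is given for 3 members. Gsta1 was at 5.12 and 5.16 in SHP-/-, 5.96 and 5.87 in wild type, 6.99 and 6.93 (FXR-/-) and 8.66 and 8.31 (double knockout), a difference of 1.82 ± 0.15 (adjusted p = 2e-08) with no overlap between any 2 groups. Gsta2 (1.68 ± 0.12) and Gstm3 (1.68 ± 0.18), members of the same enzyme family, kept that order. Mgst1, a membrane-bound glutathione transferase, was far lower in FXR-/- at 9.21 and 9.28, against 13.36 and 13.40 in SHP-/-, 13.55 and 13.35 in wild type and 12.78 and 12.73 in the double knockout (-4.14 ± 0.12, 17.6-fold, adjusted p = 5.1e-15). Here too FXR-/- alone was low, although the double knockout also lacks FXR. Of 13 sulfotransferases and UGT enzymes 7 were higher (4 without any one of the 4 arrays), 1 was lower and the median was 0.37. Sult2a2, a sulfotransferase of bile acids and steroids, read 9.62 and 9.53 in FXR-/-, 5.58 and 5.67 in SHP-/-, 5.44 and 5.82 in wild type and 12.47 and 12.65 in the double knockout (3.95 ± 0.10, 15.5-fold, adjusted p = 9.6e-16). Sult1c2, another sulfotransferase, was higher by 1.06 ± 0.15, and Papss2, which makes the sulfate donor, was lower by -0.63 ± 0.15. The share called in the sulfotransferase and UGT list was 61.5%.

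Steroid and sex-biased genes were mixed. The share called was 66.7% of male-biased and 58.3% of female-biased genes, beside 19.2% over all genes. Of 10 steroid metabolism genes 4 were higher and 2 lower (60.0% called), with a median of 0.17. Cyp17a1, a steroid 17-alpha-hydroxylase, read 6.37 and 6.2 in FXR-/-, 5.53 and 5.71 in SHP-/- and 5.57 and 5.73 in wild type (0.66 ± 0.10, adjusted p = 0.00011), and 9.52 and 9.55 in the double knockout. Hsd17b11, a steroid dehydrogenase of lipid droplets, was higher by 0.93 ± 0.14 with both its probes (0.93 and 0.97). Of 18 male-biased genes 8 were higher in FXR-/- (5 without SHP-/- replicate 2) and 4 lower, with a median of 0.17, and of 12 female-biased genes 4 were higher and 3 lower, with a median of 0.01. Elovl3, a male-biased fatty acid elongase, was undetected in FXR-/- at 4.31 and 4.30 and in the double knockout at 4.27 and 4.25, and read 8.5 and 8.63 in SHP-/- and 8.79 and 8.88 in wild type. It was at least 12.4-fold lower in FXR-/- (-4.27 ± 0.13, adjusted p = 8.3e-15).

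Cyp4a12b, a male-specific hydroxylase, was also lower in both groups without FXR, at 7.33 and 7.26 in FXR-/-, 10.12 and 10.14 in SHP-/-, 10.79 and 10.87 in wild type and 5.73 and 5.57 in the double knockout (-2.83 ± 0.12, adjusted p = 9.9e-13). Its near-identical neighbour Cyp4a12a, looked up after the values of Cyp4a12b were seen, gave 0.09 (adjusted p = 0.53), so the 2 probes disagree. Serpina1e, a male-biased protease inhibitor of a family of near-identical genes, was low in FXR-/- alone, at 11.51 and 11.46 against 13.82 and 13.97 in SHP-/- (-2.41 ± 0.08), with 13.65 and 13.76 in the double knockout. Serpina12 was low where SHP is missing, at 8.51 and 8.44 in SHP-/- and 8.51 and 8.41 in the double knockout against 10.26 and 10.25 in FXR-/- and 10.46 and 10.44 in wild type (1.78 ± 0.09, adjusted p = 2.6e-11), though its other probe gave 0.39. Cyp2a4, a female-biased steroid hydroxylase, was at 12.82 and 12.75 against 10.33 and 10.30 (2.46 ± 0.08), and 1.71 with its other probe. In the growth hormone axis 1 of 11 genes was higher and 2 lower (27.3% called), with a median of 0.09. Igfbp2, a carrier of insulin-like growth factors, was low in both groups without FXR, at 7.29 and 7.31 (FXR-/-) and 7.46 and 7.53 (double knockout) against 9.5 and 9.52 in SHP-/- (-2.21 ± 0.10, adjusted p = 3.2e-12). Cish, a feedback inhibitor that STAT5 induces, was lower at 7.02 and 7.01 against 8.83 and 8.86 (-1.83 ± 0.09), and the STAT5-repressed Bcl6 higher by 0.80 ± 0.09. Wild type lay below both single knockouts for Cish, at 5.88 and 5.81, and above both for Bcl6, at 10.27 and 10.29. STAT5 activity was not tested.

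The acute phase list held 28 tested genes, of which 9 were higher in FXR-/-, 1 was lower and 18 did not pass. The share called was 35.7% and the median 0.08. Saa2, a serum amyloid that the liver secretes in inflammation, read 11.14 and 11.13 in FXR-/-, 8.35 and 8.37 in SHP-/-, 7.33 and 7.04 in wild type and 9.83 and 10.02 in the double knockout (2.78 ± 0.12, 6.87-fold, adjusted p = 1.2e-12). Saa1 read 13.65 and 13.70, 12.12 and 12.02, 11.44 and 11.40, and 12.69 and 12.55 in the same order of groups (1.61 ± 0.10, adjusted p = 8.2e-10). For both genes wild type was lowest, then SHP-/-, the double knockout and FXR-/-, with no overlap. Their promoters are shown because the 2 genes moved together and the promoters are nearly alike, with 238 of 251 aligned positions identical (94.8%). Transcripts of this family are also alike, so which member each probe read is uncertain. The 250 bases before each start, from RefSeq on GRCm38.p6, lie at chr7:46742981-46743230 on the minus strand for Saa1 and at chr7:46751583-46751832 on the plus strand for Saa2. Capitals mark a match to TTNNGCAA, a C/EBP-type pattern, read on the opposite strand.
Saa1: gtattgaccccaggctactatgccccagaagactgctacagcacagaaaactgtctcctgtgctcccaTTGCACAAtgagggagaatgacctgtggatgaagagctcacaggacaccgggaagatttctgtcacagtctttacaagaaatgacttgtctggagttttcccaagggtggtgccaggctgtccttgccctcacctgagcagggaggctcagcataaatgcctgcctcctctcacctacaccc
Saa2: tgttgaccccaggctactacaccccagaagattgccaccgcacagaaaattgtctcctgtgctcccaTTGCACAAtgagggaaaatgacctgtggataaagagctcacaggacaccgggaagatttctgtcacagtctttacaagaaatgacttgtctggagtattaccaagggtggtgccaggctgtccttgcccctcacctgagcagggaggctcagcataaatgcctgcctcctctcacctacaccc
The match stands at -182 in Saa1 and -183 in Saa2, and 3142 of 32851 promoters (9.56%) hold the pattern on either strand. Apcs, serum amyloid P, was also higher in FXR-/-, at 9.91 and 9.89 against 8.17 and 8.49 (1.57 ± 0.12, adjusted p = 1e-08). Mt2, a metallothionein that inflammation and metals induce, was at 8.23 and 8.25 against 6.63 and 6.68 (1.59 ± 0.09, adjusted p = 8.3e-11). Of 40 complement and coagulation genes 5 were higher and 4 lower, with a median of -0.11. The share called, 22.5%, was near the 19.2% over all genes. C6 (1.28 ± 0.09) and C9 (0.68 ± 0.11), of the terminal pathway, were higher and Hc, complement C5, lower (-0.81 ± 0.08). Masp1 was higher by 0.45 ± 0.07, but its 2 probes gave 0.45 and -0.50.

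Of 17 glucose genes 4 were higher and 2 lower (35.3% called), with a median of 0.09. Pck1, the entry enzyme of gluconeogenesis, read 7.15 and 7.36 in FXR-/- and 8.12 and 8.29 in SHP-/-, both below wild type at 8.98 and 9.12 (-0.95 ± 0.15, adjusted p = 9.3e-05). Ppp1r3b, which targets phosphatase to glycogen, was higher by 0.46 ± 0.09. Of 30 amino acid and urea cycle enzymes 3 were higher and 6 lower (30.0% called), with a median of -0.02. Amdhd1, of histidine breakdown, was at 9.20 and 9.28 (FXR-/-) and 9.43 and 9.47 (double knockout) against 10.73 and 10.83 in SHP-/- and 10.98 and 10.91 in wild type (-1.54 ± 0.08, adjusted p = 3.1e-11). Ass1, of the urea cycle, had the same arrangement, at 12.50 and 12.48 against 13.26 and 13.28 (-0.78 ± 0.07), and Ftcd, also of histidine breakdown, was lower by -0.55 ± 0.08. Cth, of cysteine synthesis, was lower by -0.98 ± 0.16. Among 20 ER stress and ATF4 targets 1 was higher and 3 lower, with a median of -0.03. The share called, 20.0%, was near the 19.2% over all genes. Trib3, a stress-induced pseudokinase, was lower at 6.83 and 6.82 against 8.14 and 8.05 (-1.27 ± 0.09, with 3 probes from -1.27 to -0.53). Asns, asparagine synthetase, differed by -0.54 ± 0.12, a small part of its distance from wild type, at 9.04 and 8.88 in FXR-/- and 9.53 and 9.47 in SHP-/- against 6.60 and 6.70.

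Part of the interferon and cell cycle genes was lower in FXR-/-. Of 18 interferon response genes 10 were lower, 1 was higher and 7 did not pass (61.1% called), with a median of -0.42. Ifit3, an antiviral effector, was undetected in FXR-/- at 4.82 and 4.92 and detected in SHP-/- at 5.94 and 6.01 (at least 2.0-fold, -1.10 ± 0.12, adjusted p = 6.4e-07). Oas1g (-0.87 ± 0.12, with its other probe at -0.32 and not called) and Rsad2 (-0.78 ± 0.09), further antiviral genes, were lower, and Igtp, an interferon-gamma GTPase, was higher at 9.16 and 9.20 against 8.21 and 8.0 (1.07 ± 0.09). For Ifit3, Oas1g and Rsad2 wild type and the double knockout were near SHP-/-, so FXR-/- was the low group. Of 24 cell cycle genes 10 were lower, none was higher and 14 did not pass (41.7% called), with a median of -0.15. Of the 10, 4 were detected on all 4 arrays. Plk1, a mitotic kinase, was undetected in FXR-/- at 4.81 and 4.89 against 5.87 and 6.13 in SHP-/- (at least 2.0-fold, -1.15 ± 0.15, adjusted p = 1.7e-05). Cdc20, an activator of the anaphase complex, was undetected at 4.63 and 4.65 against 5.77 and 5.64 (at least 1.7-fold, with its other probe at -0.30 and not called), and undetected in wild type too.

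Clock and handling genes, which follow the hour and manner of killing, also differed. Of 12 circadian genes 6 were higher and 2 lower (66.7% called), with a median of 0.35. Dbp, a clock output factor, read 9.74 and 9.56 in FXR-/-, 8.43 and 8.51 in SHP-/-, 7.27 and 7.44 in wild type and 10.03 and 10.11 in the double knockout (1.18 ± 0.11, adjusted p = 2.2e-07). Noct, a clock-controlled phosphatase, was higher by 1.07 ± 0.11, and Arntl, the clock activator that runs opposite to Dbp, was lower at 6.08 and 5.97 against 6.67 and 6.65 (-0.64 ± 0.13). Of 14 immediate early and heat shock genes 2 were higher and 3 lower (35.7% called), with a median of 0.03. Hspb1, a small heat shock protein that muscle also carries, was at 6.35 and 6.25 against 7.87 and 7.86 (-1.57 ± 0.10), and Egr1, an immediate early factor, at 8.1 and 8.0 against 8.73 and 8.91 (-0.77 ± 0.10). The hours at which the livers were taken are not given in the labels, and the part of the clock in other results was not tested. Of 10 perinatal liver genes 6 were lower and 1 higher (70.0% called), with a median of -0.52. Igf2, a fetal growth factor, was at 5.37 and 5.33 against 6.55 and 6.42 (-1.14 ± 0.12, adjusted p = 5.5e-07), and Spink1, a trypsin inhibitor that pancreas also makes, at 5.04 and 5.09 against 7.22 and 7.13 (-2.11 ± 0.11).

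Markers of the liver's own cell types were called in shares from 6.25% (hepatocyte) to 42.9% (lymphocyte), beside 19.2% over all genes. Of 16 hepatocyte genes 1 was called, the asialoglycoprotein receptor subunit Asgr2 (0.61 ± 0.09), with a median of 0.05. Of 4 cholangiocyte genes Sox9 was called (0.31 ± 0.09, adjusted p = 0.028, and 0.077 to 0.16 without any of the 4 arrays). Stellate cell and matrix genes had 4 higher and 6 lower of 28 (median -0.09), macrophage and neutrophil genes 3 and 3 of 21 (median -0.11), and endothelial genes 3 and 3 of 22 (median 0.00). Lymphocyte and antigen presentation genes had 6 higher and none lower of 14, with a median of 0.45, and a mean log2 intensity of 6.29 and 6.31 in FXR-/- against 5.89 and 5.84 in SHP-/-. Coro1a, a leukocyte actin regulator, was at 7.20 and 7.31 against 6.35 and 6.56 (0.80 ± 0.11, with 3 probes from 0.22 to 0.80 of which 1 was called), and H2-Eb1, a class II chain, at 7.01 and 7.06 against 6.33 and 6.4 (0.68 ± 0.14). Sparc, a matrix protein, was undetected in FXR-/- at 4.38 and 4.41 and read 6.29 and 6.4 in SHP-/- (at least 2.6-fold). Fcer1g, a chain shared by Fc receptors, was undetected in FXR-/- at 4.29 and 4.22 against 7.47 and 7.36 in SHP-/-, 7.41 and 7.37 in wild type and 7.87 and 8.02 in the double knockout (at least 5.6-fold, -3.16 ± 0.10), while its receptor partner Fcgr3 was higher by 0.89 ± 0.12. Of 10 erythroid genes 4 were higher and 1 lower. The adult beta-globins went opposite ways, Hbb-b2 at 9.30 and 9.53 in FXR-/- and 5.72 and 5.77 in SHP-/- (3.67 ± 0.10), and Hbb-bt undetected at 4.75 and 4.90 against 7.47 and 7.39 (at least 5.6-fold lower). In wild type Hbb-b2 was undetected at 4.84 and 4.83 and Hbb-bt read 7.32 and 7.38. The double knockout had both, Hbb-b2 at 8.68 and 8.55 and Hbb-bt at 6.10 and 5.67. At 3 weeks the differences were 4.16 for Hbb-b2 and -2.78 for Hbb-bt. The sequences of these globins are near-identical, so which globin each probe read is uncertain, and the alleles at this locus were not tested. Adipose markers had 2 of 7 higher, led by Adipoq (1.15 ± 0.14), and stomach and intestine markers 2 of 4 lower, led by Tff2 (-1.16 ± 0.14). The Y-linked gene Eif2s3y was undetected in FXR-/- at 4.33 and 4.34 and at 7.17 and 7.51 in SHP-/- (at least 5.3-fold), while Y-linked Kdm5d was detected on all 4 arrays, at 5.38 and 5.28 against 5.08 and 4.95.

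**Figure D2:**
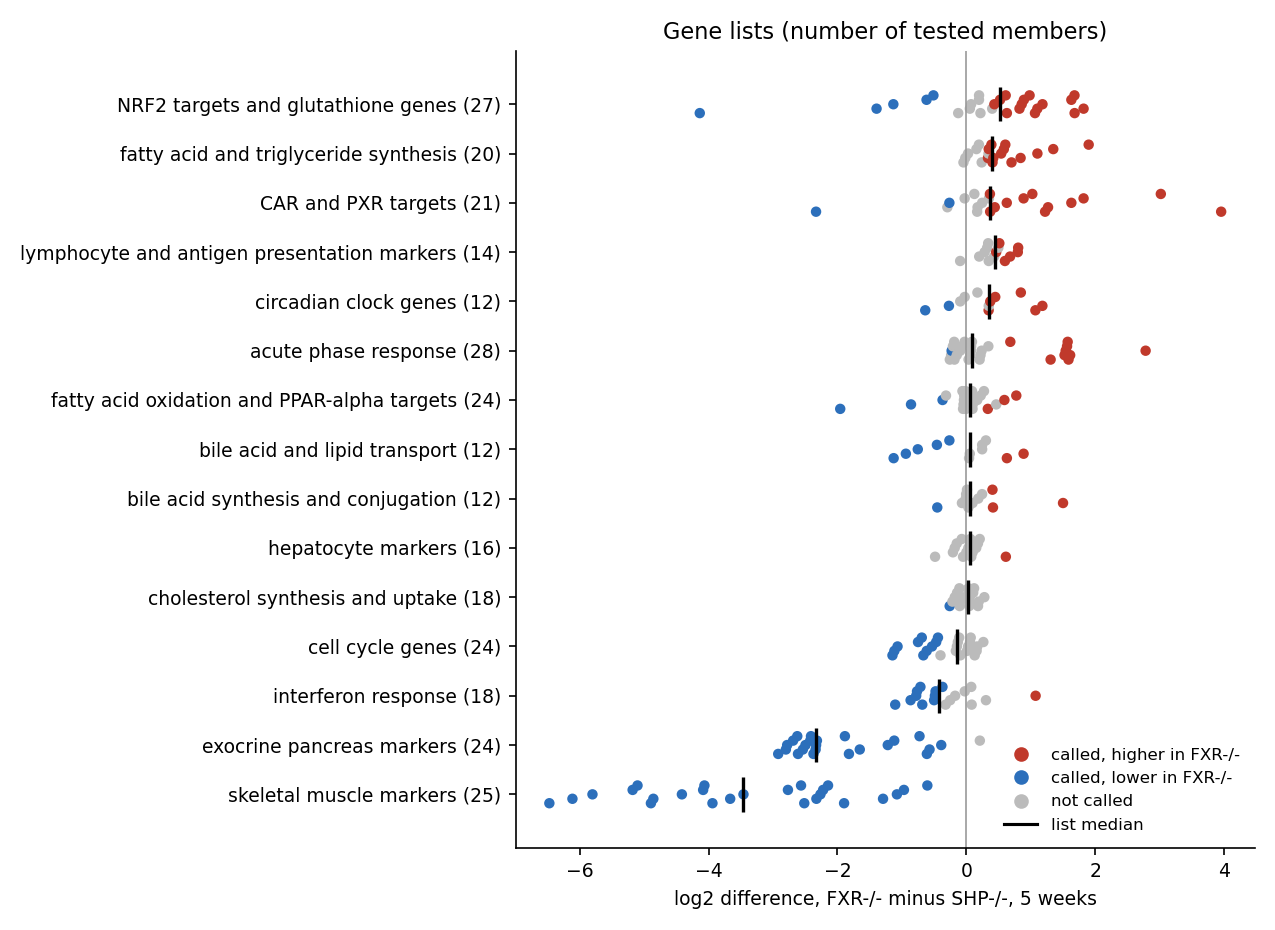
Log2 difference, FXR-/- minus SHP-/-, at 5 weeks (x axis) for every tested member of selected gene lists (rows, with member numbers); colours mark genes higher, lower or not called and black bars are list medians. Muscle and pancreas markers lie far to the left with medians of -3.46 and -2.33, while fatty acid synthesis genes and the joint list of NRF2 and glutathione genes lie mostly to the right with medians of 0.40 and 0.52.

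Outside the lists of other tissues the largest differences were single genes. Higher in FXR-/- beside Cyp2c39, Sult2a2, Cyp2c50, Saa2 and Cyp2a4 were 7 more. Abhd1, a hydrolase-fold protein, read 9.47 and 9.58 in FXR-/- against 6.30 and 6.25 in SHP-/-, and wild type (5.74 and 5.95) and the double knockout (5.74 and 5.53) were low as well (3.24 ± 0.13, adjusted p = 7.1e-13). Psmc3ip, a recombination cofactor, was detected in FXR-/- alone among the 5-week groups, at 7.62 and 7.72 (at least 7.1-fold, 2.88 ± 0.13). Gdpd3, a lysophospholipase D, followed loss of FXR, at 7.83 and 7.62 (FXR-/-) and 7.68 and 7.98 (double knockout) but undetected in SHP-/- (at least 7.4-fold, 3.01 ± 0.17). Cib3, a calcium-binding protein, was highest in FXR-/- at 8.63 and 8.44 and lowest in SHP-/- at 5.56 and 5.47, with wild type between at 7.76 and 7.66 (3.02 ± 0.12). Pnrc2, an adaptor of RNA decay and of nuclear receptors, was low where SHP is missing, at 5.47 and 5.19 in SHP-/- and 4.8 and 4.9 in the double knockout against 8.01 and 7.99 in FXR-/- and 8.33 and 8.41 in wild type (2.68 ± 0.15). Necap2, an endocytic protein, was low in SHP-/- alone at 5.09 and 5.15 against 7.35 and 7.22 (2.16 ± 0.12), and the membrane protein gene Lrtm1 was lowest in SHP-/- at 7.01 and 7.17 against 9.40 and 9.33 (2.27 ± 0.10).

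The 12 largest in the other direction were mainly genes of striated muscle that no list held. Fabp3, a muscle fatty acid carrier, was undetected in FXR-/- at 4.36 and 4.35 and read 9.98 and 9.92 in SHP-/-, 9.08 and 8.98 in wild type and 9.73 and 10.02 in the double knockout (at least 32.4-fold, -5.60 ± 0.12). Tpm2, a tropomyosin, at least 24.8-fold (-5.05, and -1.71 with its other probe), Cox8b, a muscle cytochrome oxidase subunit, at least 15.8-fold, Ckmt2, a mitochondrial creatine kinase, at least 12.9-fold, Myl2, a slow myosin light chain, at least 10.6-fold, Actn2, a Z-disc protein, at least 10.3-fold and Rpl3l, a muscle ribosomal protein, at least 10.1-fold lower, were likewise undetected in FXR-/- and next lowest in wild type. These 7 moved with the muscle markers, whose part in them was not tested. The rest were Nr1h4, Elovl3, Mgst1, Ang and Erdr1. Ang, a secreted ribonuclease, was low in both groups without FXR, at 6.46 and 6.62 (FXR-/-) and 6.36 and 6.42 (double knockout), against 10.58 and 10.54 in SHP-/- and 9.86 and 9.93 in wild type (-4.02 ± 0.12, 16.2-fold, adjusted p = 5.2e-15). Erdr1 was low in FXR-/- alone, at 5.32 and 4.58 against 8.90 and 8.65 (-3.82 ± 0.17), but -0.98 with its other probe.

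**Figure D3:**
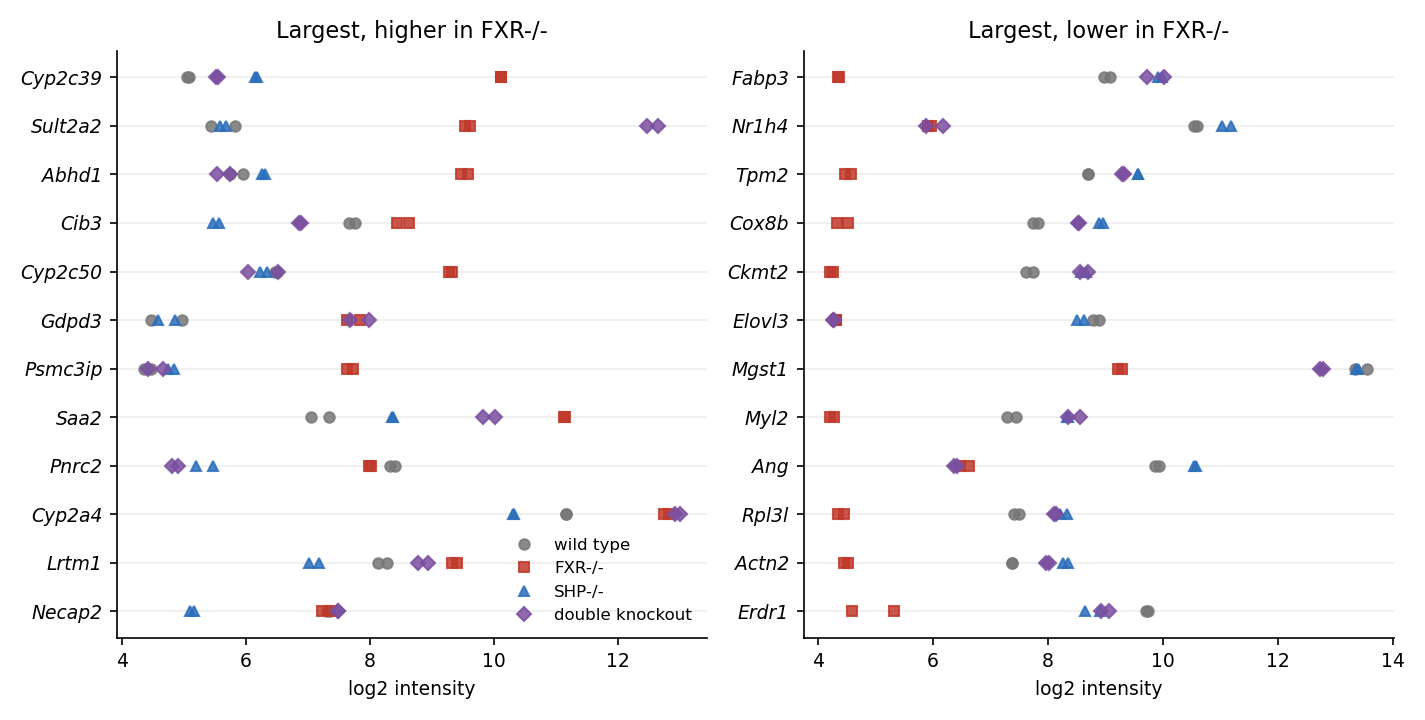
Log2 intensity (x axis) of the 12 genes with the largest differences in each direction outside the lists of other tissues, on the 8 arrays of 5-week livers; colours and shapes mark genotypes and each point is an array. In FXR-/- Nr1h4, Elovl3 and Ang sit beside the double knockout, while Mgst1 and the muscle genes are low in FXR-/- alone.

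The wild-type and double-knockout arrays of the same slide place each difference. Double-knockout replicate 2 had a biotin control of 903.0, against 2958.5 to 3487.3 on the other arrays of the slide. The wild-type and double-knockout means did not enter the contrast, but the spread of all groups entered the shared variance that set the calls. Duplicates differed most in the 3-week double knockout, with a standard deviation of 2.22 in bead standard errors. A fit of the 4 compared arrays alone called 1749 genes, 1404 of them among the 1432. Of the 1432 called genes 984 (68.7%) had a wild-type mean nearer to SHP-/- and 448 (31.3%) nearer to FXR-/-. The double knockout was nearer to FXR-/- for 779 (54.4%) and to SHP-/- for 653 (45.6%). In 518 genes (36.2%) wild type sat with SHP-/- and the double knockout with FXR-/-, the arrangement of Abcb11, Elovl3, Ang, Amdhd1 and Pnpla3. In 187 (13.1%) wild type sat with FXR-/- and the double knockout with SHP-/-, as for Pnrc2 and Serpina12. In 466 genes both sat with SHP-/-, as for Cyp2c39, Mgst1 and Abcg5, and in 261 both sat with FXR-/-. Of the 246 genes with at least 2-fold differences outside the lists of other tissues, 200 (81.3%) had wild type nearer to SHP-/-. The 246 still hold Fabp3 and the other muscle genes named above that no list held, all with wild type nearer to SHP-/-. The part of other tissues in this share was not tested. All these counts are descriptions of group means with no test, and wild type came from another source than the knockouts.

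The same contrast at 3 weeks used other arrays, on the other slide, of the same lines. Of the same 7439 genes 2062 were called there (27.7%), 1024 higher (13.8%) and 1038 lower (14.0%) in FXR-/-. Of the 1432 genes called at 5 weeks 1084 (75.7%) had the same sign at 3 weeks, against 56.0% of the genes not called, and 682 (47.6%) were called in the same direction while 119 (8.31%) were called in the opposite one. The difference between ages was itself called for 989 of 7439 genes (13.3%). No age difference was called for Cyp7a1, at 1.74 at 3 weeks, or Abcb11, at -1.09 (age differences of -0.24 ± 0.15 and -0.04 ± 0.13, adjusted p = 0.32 and 0.90). Cyp7b1 did differ between ages, at 1.19 at 3 weeks against 0.41 at 5 weeks (-0.79 ± 0.17, adjusted p = 0.0031). Cyp8b1 was not called at 3 weeks (0.20, adjusted p = 0.086), and its age difference of 0.21 ± 0.12 did not pass either (adjusted p = 0.27). Apoc2 was at -2.86 at 3 weeks. Transporters did not all follow, since Abcg8, Slc10a1 and Slco2b1 were lower in FXR-/- at 3 weeks, by -0.71, -0.85 and -0.81, and did not pass at 5 weeks. Sult2a2 read 13.01 and 12.88 in FXR-/- and 11.92 and 11.99 in SHP-/- at 3 weeks, a difference of 0.99 against 3.95 at 5 weeks, where SHP-/- was at 5.58 and 5.67. Elovl3 was undetected in both genotypes at 3 weeks and differed at 5 weeks alone.

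Part of the cell cycle genes turned round. At 3 weeks 19 of 24 were higher in FXR-/- and none lower, with a median of 1.01. At 5 weeks 10 were lower and 14 did not pass, with a median of -0.15, and 21 of the 24 differed between ages. Of the 10 lower genes 4 were detected on all 4 arrays at 5 weeks. Plk1, Cdc20 and Prc1 were not among these and entered the test through SHP-/- alone, where they are higher. Cdc20 was at 8.31 and 8.24 in FXR-/- and 4.85 and 5.11 in SHP-/- at 3 weeks, so FXR-/- was far above SHP-/- there and below it at 5 weeks, where FXR-/- lay with wild type and SHP-/- with the double knockout. Plk1 was at 7.62 and 7.54 against 5.48 and 5.46 at 3 weeks. Prc1, a spindle protein, turned from 2.67 to -1.12. Immediate early and heat shock genes were higher at 3 weeks in 12 of 14 (median 1.32), with Jun at 3.36 and Egr1 at 2.15, and fatty acid synthesis genes had 6 higher and 4 lower of 20 (median 0.16). Muscle markers turned as well, with 17 of 25 higher in FXR-/- at 3 weeks and none lower (median 0.92). Pancreas markers did not turn, with 2 higher and 2 lower of 24 at 3 weeks and a median of -0.01. Their part in the age difference was not tested.

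**Figure D4:**
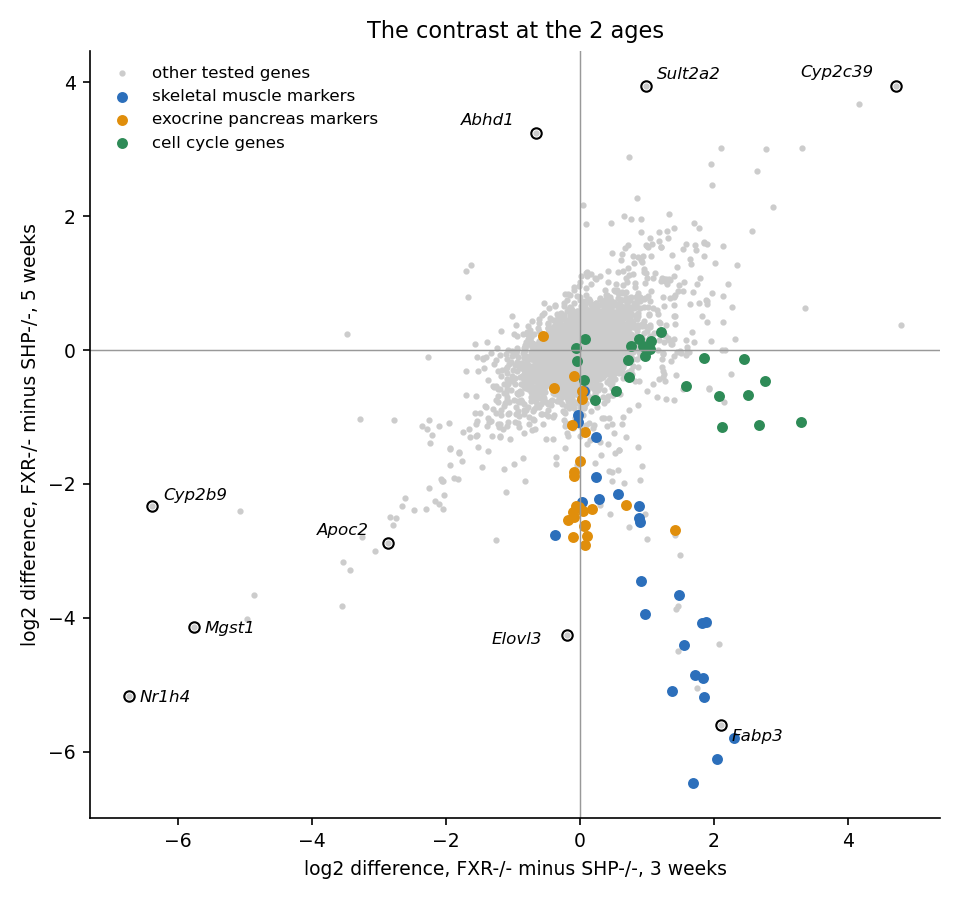
Log2 difference, FXR-/- minus SHP-/-, at 3 weeks (x axis) and 5 weeks (y axis) for all tested genes, with muscle, pancreas and cell cycle genes coloured and some genes named. Muscle and cell cycle genes lie mostly to the right of and below zero, pancreas genes lie below zero near the vertical line, and Nr1h4, Mgst1 and Apoc2 lie low at both ages.

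Genes beside the deleted loci were looked at by their order along the chromosome in GRCm38.p6. Among the 50 tested genes nearest to Nr0b2 on chromosome 4, 25 on each side, 15 were called (30.0%), against 99 of 420 (23.6%) on the rest of it. Around Nr1h4 on chromosome 10 the counts were 9 of 50 (18%) and 39 of 307 (12.7%). The share near Nr1h4 was close to the 19.2% called over all genes. Of the 15 near Nr0b2, 9 had wild type nearer to FXR-/- and the double knockout nearer to SHP-/-, against 15 of the 99 elsewhere on the chromosome. Of the 15 called genes 8 differed at least 2-fold, Pnrc2, Fabp3 and 6 more that are named here. Gpn2, a GTPase next to Nr0b2 that, like the next 5, was chosen after the values were seen, read 6.75 and 7.01 in SHP-/- and 6.90 and 6.98 in the double knockout against 7.93 and 7.96 in FXR-/- and 7.88 and 7.85 in wild type (1.06 ± 0.11, adjusted p = 3.4e-07). Xkr8, a phospholipid scramblase, was at 4.62 and 4.84 and at 4.51 and 4.72 in the groups without SHP, against 6.07 and 6.08 and 6.47 and 6.08 (1.35 ± 0.15). Eya3, a phosphatase (1.58 ± 0.13, with its other probe at 0.20), Cep85, a centrosomal protein (1.57 ± 0.12), and Sytl1, a vesicle protein (1.40 ± 0.16), were higher in FXR-/- too. Extl1, a glycosyltransferase of the exostosin family, had the same grouping in the opposite direction, at 6.28 and 6.35 in SHP-/- and 6.21 and 6.39 in the double knockout against 5.35 and 5.01 in FXR-/- and 4.75 and 4.65 in wild type (-1.13 ± 0.14, adjusted p = 7.3e-06). Near Nr1h4, 5 of the 9 called genes had wild type nearer to SHP-/- and the double knockout nearer to FXR-/-, Amdhd1 among them, against 18 of 39 on the rest of chromosome 10.

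**Figure D5:**
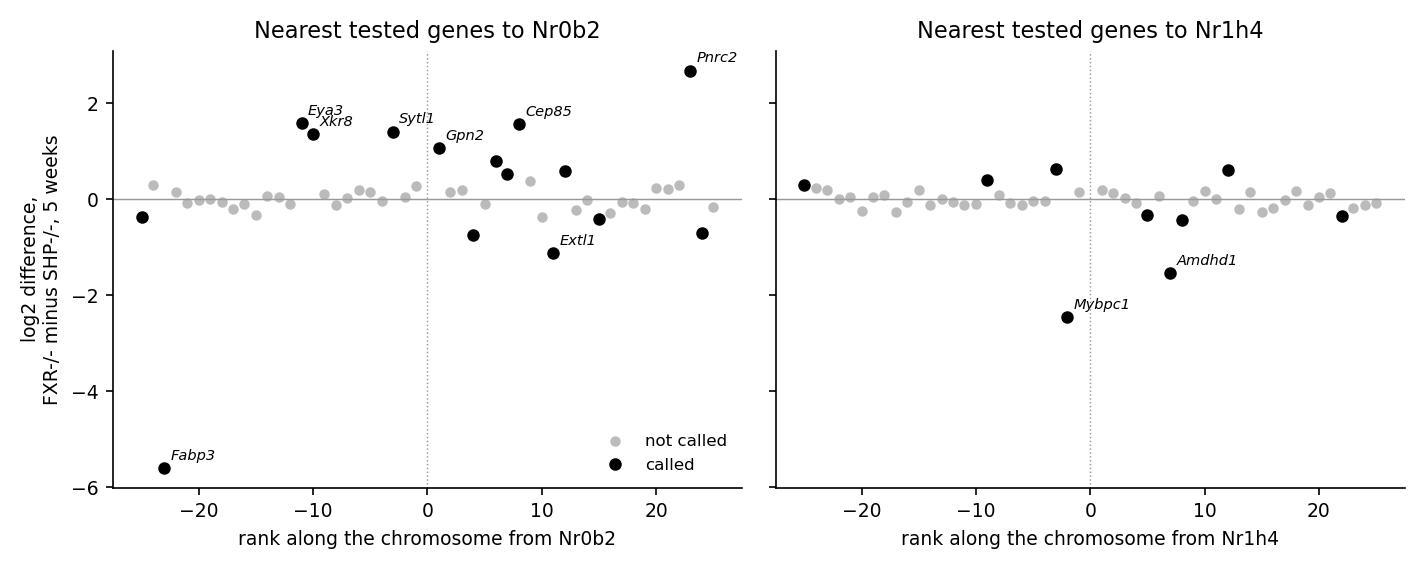
Log2 difference, FXR-/- minus SHP-/-, at 5 weeks (y axis) of the 25 tested genes on each side of Nr0b2 (left) and Nr1h4 (right), by rank along the chromosome; black points are called genes, and those with at least 2-fold differences are named. Near Nr0b2 the named genes mostly lie above zero, led by Pnrc2 at 2.68, with Fabp3 at -5.60 below.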

How the data were processed

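Liver RNA was read on Illumina bead arrays of the mouse Ref-8 design. Per the file headers, the deposited unnormalized table, exported from BeadStudio, holds for each probe the mean bead intensity and a detection p-value, with no normalization. The detection columns of 4 arrays also carry other entries from the sample sheet appended to the file. The authors' processed table holds log2 values with a median of 6.22, whose transform and centring are not given in the sources used here, and each column correlated best with its own array. Genes were named through the annotation of the array platform. Of 24613 probes 20984 had 1 symbol, 1 had several and 3628 had none.

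The intensities of all 16 arrays went through neqc (limma 3.58.1, R 4.3.3), which corrects the background from negative controls inferred from the detection p-values, quantile normalizes and takes log2 after adding 16. One mean per group was fitted to the 8 groups (lmFit, contrasts.fit, eBayes with a trend), and p-values were adjusted by Benjamini-Hochberg over 7439 genes. On simulated data the fit was checked for sign and size. The 2 arrays per group limit the precision.

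Genes were named from Nr1h4, Nr0b2, the bile acid synthesis and transport lists, the 12 largest differences in each direction whose arrays do not overlap and which lie outside the lists of other tissues, up to 4 called members per list, the 3 brightest members of the lists of other tissues and the 6 largest age differences in each direction. Not every gene that met this rule is named. Gstp1, Mgst3, Gsta3, Kdm5d and further members of the NRF2 list lie outside it. So do Cyp4a12a and the genes near Nr0b2 chosen after their values were seen. The comparison, lists and tests were chosen with earlier results of these data known. Alternatives changed the normalization, the offset, the filter, the arrays in the fit, the probe rule and the replicate block.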

Additional observations from a re-analysis of the deposited data

Results flagged for a closer look

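The difference between FXR-/- and SHP-/- was itself different at 3 and 5 weeks for 989 of 7439 genes, by the age term of the limma fit at an adjusted p under 0.05. Age and slide cannot be told apart. The values below are the 5-week minus the 3-week log2 difference between the genotypes, for genes described with 3-week values or picked as the largest age differences.

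Among genes of liver metabolism, the age difference was 2.96 for Sult2a2, 2.89 for Cyp2b10, 4.04 for Cyp2b9, 2.66 for Serpina1e, 3.90 for Abhd1 and -4.07 for Elovl3. Cyp2b10 changed side, from -1.62 at 3 weeks to 1.27 at 5 weeks, and so did Abhd1, from -0.66 to 3.24. Cyp2b9 and Serpina1e stayed lower in FXR-/- at both ages, at -6.37 and -5.07 at 3 weeks. Bile acid and sterol carriers had smaller values, 0.55 for Slc51b, 0.76 for Abcg8, 1.09 for Slc10a1 and 0.85 for Slco2b1. Nr1h4 itself had 1.56, with a low signal detected in FXR-/- at 5 weeks and none at 3 weeks.

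The mitotic genes Cdc20 (-4.36), Plk1 (-3.26) and Prc1 (-3.79) and the immediate early genes Egr1 (-2.92) and Jun (-2.72) were higher in FXR-/- at 3 weeks. At 5 weeks Jun remained higher, by 0.63, and the other 4 were lower. Dbp, a clock output gene, had 2.88 and turned from -1.70 to 1.18. The growth hormone axis genes Bcl6 and Cish turned in opposite directions, with age differences of 2.46 and -2.31.

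Muscle genes had the largest age differences. These were -8.15 for Acta1 and for Atp2a1, the calcium pump of fast muscle, -7.70 for Fabp3, -6.79 for Tpm2, -6.47 for Ckmt2, -6.00 for Myl2, -5.96 for Cox8b and -5.31 for Rpl3l. The mean of 25 muscle markers was 6.35 on both FXR-/- arrays and 5.35 and 5.34 on the SHP-/- arrays at 3 weeks, and 4.63 and 4.60 against 8.01 and 7.99 at 5 weeks. Their part in the other age differences was not tested.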

How the results depend on the processing

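The count of 1432 called genes stayed within 1.5 times under every alternative run. It was 1414 without background correction, 1416 with the authors' values, 1608 with the 5-week arrays alone, 1423 with an offset of 50, 1240 of 15967 with no filter, 1142 of 6624 with detection on all 4 arrays, 1749 with only the 4 compared arrays, 1393 without the trend, 1472 with the mean of a gene's probes, 1497 with each probe tested and 960 to 989 without 1 array. Added after the data were seen, plain normexp gave 1414 and leaving out the lists of other tissues 1361. The replicate block gave 1440, 1402 of them shared with the 1432, and 975 for the 989 age differences; deviations of same-numbered FXR-/- and SHP-/- arrays at 5 weeks correlated at 0.05, so they share only a number. The age count was 982 without background correction, 995 with the authors' values, 868 with no filter and 707 to 742 without 1 array. The 294 genes with at least 2-fold differences fell to 155 with the authors' values, 187 with an offset of 50 and 181 with detection on all 4 arrays. Under the mean of a gene's probes Abcc2 turned to 0.0006608 and Masp1 to -0.02449, since their probes disagree.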
